A study of Schistocerca gregaria with 20 samples.

Results

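The transcripts described here are the 6 that the study names as lipid carriers, lipid-synthesis enzymes or other lipid-related proteins and that were picked for this account by their identifiers: the alpha-tocopherol transfer proteins SgreTa0004599 and SgreTa0003635, the waterproof-like fatty acyl-CoA reductase SgreTa0004278, the cytochrome P450 CYP4G102 (SgreTa0006282), the phospholipase B-like SgreTa0014098 and vigilin (SgreTa0007081). All 6 were found among the 12988 transcripts of the table. The names come from the study's sequence matches, and all 6 stand on its list of the abundant transcripts that were higher in pleuropodia than in legs at days 10 to 12, so their levels at those days are given as a description without a test. The label of the set covers its members unevenly, since the study describes the phospholipase B-like protein as an enzyme of lipid degradation and vigilin as an RNA-binding protein of sterol metabolism.

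Many insect embryos carry a pair of glands in the place of legs on the front segment of the abdomen, the pleuropodia, which are lost at hatching. In the desert locust *Schistocerca gregaria* (gregarious phase) they were compared with legs of the third thoracic pair, the hind legs, from embryos of the same age. Eggs were kept at 30 °C, and mRNA of 10 pleuropodia libraries and 10 leg libraries was sequenced, 1 library per tissue at days 4, 5, 6, 7, 8, 8-9, 10, 11, 12 and 13 after laying, each from many pooled appendages. Libraries of neighbouring days were grouped as the 3 libraries of days 4 to 6, of days 7, 8 and 8-9 (days 7 to 9 below) and of days 10 to 12. Day 13 stands alone. The study saw secretion granules from day 8 on, calls pleuropodia of days 10 to 12 highly secreting and places advanced degeneration at day 13. An SD over such a group therefore spans age as well as sampling, and p-values measure the spread between these libraries only.

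Proteins of the alpha-tocopherol transfer protein family hold a fatty molecule in a hydrophobic pocket and move it between membranes, and the mammalian protein that gives the family its name carries vitamin E. Fatty acyl-CoA reductases turn activated fatty acids into fatty alcohols. In *Drosophila*, waterproof is a reductase of this kind needed for gas filling of the tracheae, and CYP4G enzymes make the cuticular hydrocarbons that keep insects from drying out by removing a carbon from fatty aldehydes. Phospholipase B-like proteins of mammals are lysosomal. Vigilin is a protein with many KH domains that binds RNA, and in vertebrates it is also known as a high-density lipoprotein binding protein.

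The libraries held 15186075 to 36027338 mapped reads in pleuropodia and 27890837 to 36884141 in legs, as recovered from the deposited values, with the lowest depth in pleuropodia of day 8-9. Libraries of day 8-9 came from a second sequencing centre in both tissues and, per the study's methods, from another instrument and another RNA clean-up. The tissue labels were checked against marker genes, and dac, a gene of the leg axis, stood between 0 and 3.31 RPKM in the 10 pleuropodia libraries and between 9.98 and 99.4 RPKM in the 10 leg libraries. The Hox gene abd-A stood at 17.2 and 9.14 RPKM in pleuropodia of days 4 and 5, against 0.127 and 0.0989 RPKM in legs, and Ubx at 176.5 and 188 RPKM in pleuropodia, against 59.0 and 71.7 RPKM in legs. The excess of Ubx was limited to these early stages, and from day 6 on it was lower in pleuropodia than in legs, with 104 and 112 RPKM at day 6 and 3.17 and 87.1 RPKM at day 10 in pleuropodia and legs. RPKM are reads scaled by the length of the transcript and the size of the library, so levels can be compared between transcripts. In tissue RNA, fewer cells that make a transcript and less of it per cell cannot be told apart.

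SgreTa0004599 was the most abundant member in pleuropodia from day 7 on. Its level in pleuropodia was 0.134, 5.46 and 24.9 RPKM at days 4, 5 and 6, against 0.141, 1.77 and 4.56 RPKM in legs. The tissues were level at day 4, with 8 reads in pleuropodia and 9 in legs. Pleuropodia reached 2420, 2646 and 2225 RPKM at days 7, 8 and 8-9, against 5.32, 8.80 and 4.28 RPKM in legs. At days 10, 11 and 12 the levels were 5474, 5968 and 6103 RPKM in pleuropodia, against 5.96, 9.36 and 11.6 RPKM in legs, and at day 13 they were 5298 RPKM in pleuropodia and 16.1 RPKM in legs. The groups of the 2 tissues therefore did not overlap at days 7 to 9 or at days 10 to 12, the latter being the days of the study's list. The share of all transcripts separated in this way was not counted. The order of the means was 5848 ± 331 RPKM (SD, n = 3) in pleuropodia of days 10 to 12, 2430 ± 211 RPKM in pleuropodia of days 7 to 9 and 10.2 ± 13.0 RPKM in pleuropodia of days 4 to 6. Legs followed with 8.99 ± 2.86, 6.13 ± 2.36 and 2.16 ± 2.24 RPKM from the oldest period to the youngest, and the range of pleuropodia of days 4 to 6 covered those of all 3 leg groups.

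SgreTa0003635, the second transcript of that name, had no read at days 4 and 5 in either tissue. At day 6 it stood at 2.16 RPKM in pleuropodia, against 0.574 RPKM in legs. Pleuropodia then held 861, 955 and 1292 RPKM at days 7, 8 and 8-9, against 0.405, 0.444 and 0.161 RPKM in legs, where these values rest on 25, 29 and 8 reads. The transcript was thus abundant in one appendage and near the limit of detection in the other. At days 10, 11 and 12 it stood at 962, 1361 and 3079 RPKM in pleuropodia, against 1.50, 2.74 and 2.45 RPKM in legs, and at day 13 at 1945 RPKM in pleuropodia and 2.78 RPKM in legs. Means in pleuropodia were 1801 ± 1125 RPKM at days 10 to 12 and 1036 ± 226 RPKM at days 7 to 9 (SD, n = 3 each), and these ranges overlapped, the wide SD coming from day 12.

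**Figure D1:**
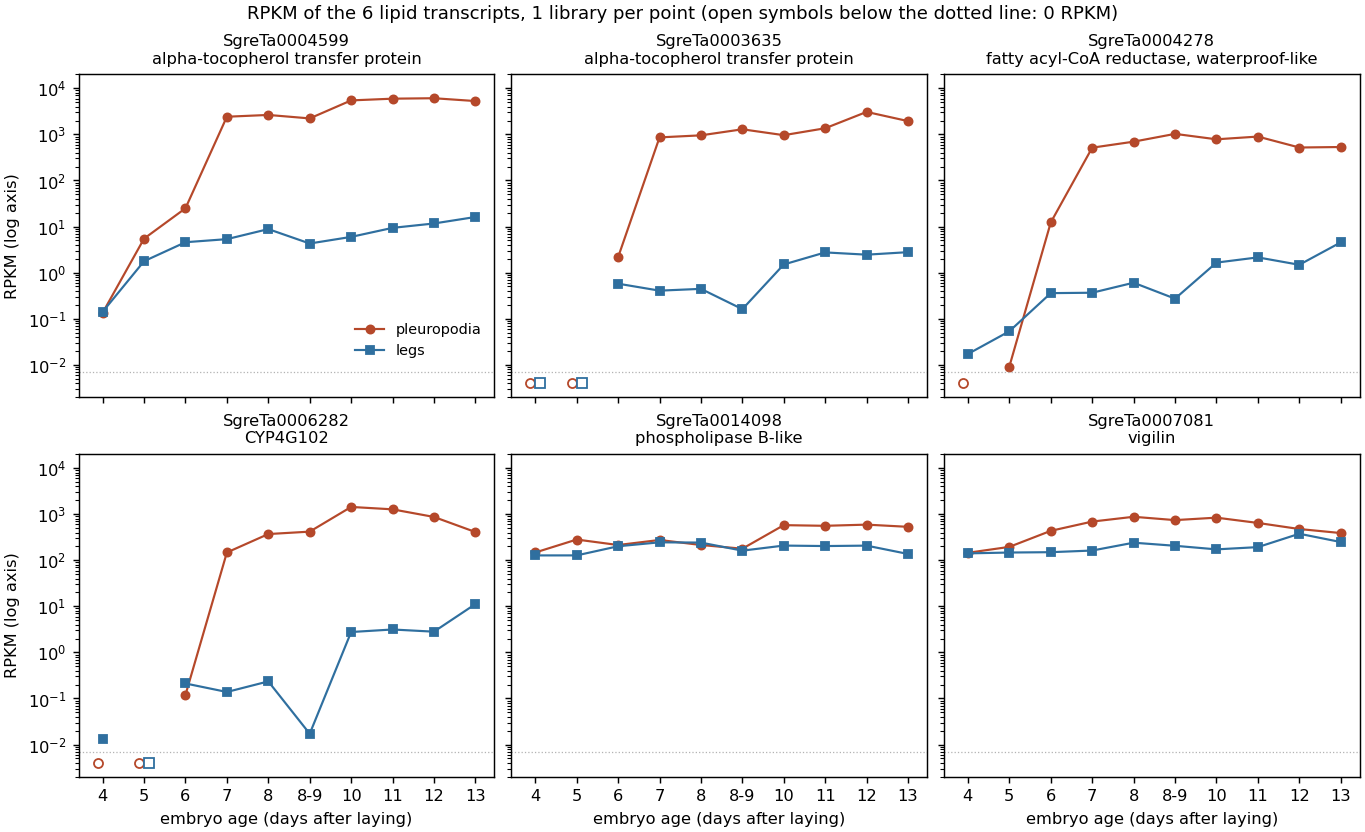
RPKM on a log axis against embryo age for the 6 transcripts, with pleuropodia as circles and legs as squares, 1 library per point, and open symbols below the dotted line for libraries at 0 RPKM. SgreTa0004599, SgreTa0003635 and SgreTa0004278 are above legs in pleuropodia at day 6 (5.45-fold, 3.77-fold and 34.2-fold) and, with SgreTa0006282, at least 300.8-fold above from day 7 to day 8-9, while SgreTa0014098 lies between 128 and 282 RPKM in both tissues up to day 8-9 and SgreTa0007081 is at least 141 RPKM in every library.

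The fatty acyl-CoA reductase SgreTa0004278 was also near 0 at first and abundant in pleuropodia from day 7 on. Pleuropodia held 0 reads at day 4, 1 read at day 5 (0.00914 RPKM) and 1399 reads at day 6 (12.3 RPKM), against 0.0171, 0.0532 and 0.358 RPKM in legs. Day 6 was thus the first stage with a clear excess in pleuropodia, 34.2-fold (95% counting interval 25.1 to 47.9). Levels at days 7, 8 and 8-9 were 515, 696 and 1027 RPKM in pleuropodia, against 0.365, 0.603 and 0.272 RPKM in legs. At days 10, 11 and 12 they were 783, 897 and 520 RPKM in pleuropodia, against 1.65, 2.14 and 1.48 RPKM in legs, and at day 13 they were 532 RPKM in pleuropodia and 4.52 RPKM in legs. The means of the later periods in pleuropodia, 746 ± 260 RPKM at days 7 to 9 and 733 ± 194 RPKM at days 10 to 12 (SD, n = 3 each), were within one another's spread.

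CYP4G102, the P450 of the hydrocarbon-forming family, appeared last. It had 0 reads in pleuropodia at days 4 and 5 and 9 reads at day 6 (0.119 RPKM), against 1, 0 and 16 reads in legs. A count of 0 reads allows a level of up to 0.0416 RPKM at day 4 and 0.0415 RPKM at day 5, the value of 3 reads. At day 6 the level in pleuropodia was therefore not above that in legs, 0.212 RPKM. Pleuropodia held 148, 371 and 419 RPKM at days 7, 8 and 8-9, against 0.138, 0.235 and 0.0171 RPKM in legs, the last resting on 1 read, so that the ratio at day 8-9 has a counting interval of 4386 to 965534. At days 10, 11 and 12 the values were 1439, 1277 and 873 RPKM in pleuropodia, against 2.77, 3.14 and 2.82 RPKM in legs, and at day 13 they were 410 RPKM in pleuropodia and 11.2 RPKM in legs. Means in pleuropodia were 1196 ± 292 RPKM at days 10 to 12 and 313 ± 145 RPKM at days 7 to 9 (SD, n = 3 each). These ranges did not overlap, and how many of all transcripts did likewise was not counted.

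The phospholipase B-like SgreTa0014098 behaved differently, being present in both appendages from the start. Its level was 148, 282 and 214 RPKM in pleuropodia at days 4, 5 and 6, against 128, 128 and 202 RPKM in legs. At days 7, 8 and 8-9 it was 276, 215 and 178 RPKM in pleuropodia, against 245, 242 and 162 RPKM in legs. The groups thus overlapped, and by RPKM legs were the higher tissue at day 8. After a 2.21-fold excess in pleuropodia at the single stage of day 5, the tissues were apart at each stage from day 10 on, with 579, 560 and 594 RPKM in pleuropodia at days 10, 11 and 12, against 209, 204 and 208 RPKM in legs, and 533 RPKM in pleuropodia and 137 RPKM in legs at day 13. The 3 pleuropodia libraries of days 10 to 12, with a mean of 578 ± 17.0 RPKM (SD, n = 3), lay above all other libraries of days 4 to 12. The study used these days to choose its list, and how many of all transcripts did likewise was not counted. The remaining means ran close together, from 223 ± 49.3 RPKM in pleuropodia of days 7 to 9 to 152 ± 42.7 RPKM in legs of days 4 to 6.

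Vigilin (SgreTa0007081) was likewise present throughout, and its excess in pleuropodia came earlier. Pleuropodia held 146, 195 and 436 RPKM at days 4, 5 and 6, against 141, 147 and 150 RPKM in legs, and 692, 880 and 745 RPKM at days 7, 8 and 8-9, against 163, 241 and 206 RPKM in legs. At days 10, 11 and 12 the levels were 843, 647 and 477 RPKM in pleuropodia, against 173, 193 and 377 RPKM in legs. The gap between the tissues was thus 4.88-fold at day 10 and 1.27-fold at day 12, where pleuropodia were at their lowest of the 3 days and legs at the highest level of any leg library. At day 13 the values were 390 RPKM in pleuropodia and 249 RPKM in legs, 1.57-fold. The mean was 772 ± 96.8 RPKM in pleuropodia of days 7 to 9 and 656 ± 183 RPKM in those of days 10 to 12 (SD, n = 3 each), with overlapping ranges.

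At days 4 to 6 no member was called different between pleuropodia and legs. SgreTa0004599, the phospholipase B-like transcript and vigilin reached the minimum level for a test, 1 RPKM in at least 3 of the 6 libraries, and SgreTa0003635, the reductase and CYP4G102 did not. Of these 3 tested, 0 were called higher in pleuropodia by limma on log2(RPKM + 0.5) after TMM scaling (adjusted p under 0.05 over all transcripts), near the 0.0505% of the 9906 transcripts tested that were called higher. An unadjusted p under 0.05 was found for 0 of them, beside 582 of all transcripts tested. The log2 fold changes were 1.27 (standard error 1.46, adjusted p = 0.76 from limma) for SgreTa0004599, 0.51 (0.28, 0.70) for the phospholipase B-like transcript and 0.69 (0.44, 0.70) for vigilin. Without pleuropodia of day 6 the value of SgreTa0004599 was -0.04, but that fit sets pleuropodia of days 4 and 5 against legs of days 4 to 6. At matched ages pleuropodia stood at 0.951 times legs at day 4, 3.09 times at day 5 and 5.45 times at day 6.

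At days 7 to 9, libraries that the study did not use for its list, the difference was large for 4 members and moderate for vigilin. The log2 fold change of pleuropodia over legs was 8.86 (standard error 0.25, adjusted p = 3.7e-06 from limma) for SgreTa0004599 and 10.48 (0.23, 2.3e-06) for SgreTa0003635. It was 9.85 (0.30, 5e-06) for the reductase and 9.02 (0.45, 2.3e-05) for CYP4G102, and 2.24 (0.22, 0.00033) for vigilin. These 5 passed the threshold. SgreTa0003635, the reductase and CYP4G102 reached the minimum level only through their pleuropodia libraries and so had to differ, and their calls are not read as support. SgreTa0004599, vigilin and the phospholipase B-like transcript reached it in legs as well. Of these, SgreTa0004599 and vigilin were called higher, where 25.3% of the 10983 transcripts tested were called higher. The median over all transcripts tested was -0.03, and without TMM scaling -0.32.

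The phospholipase B-like SgreTa0014098 was not called at days 7 to 9, with a log2 fold change of 0.35 (standard error 0.20, 95% confidence interval -0.13 to 0.82, adjusted p = 0.19 from limma). With libraries of the same day taken as pairs the same value had an adjusted p of 0.011, and without TMM scaling it was 0.05 with an adjusted p of 0.88. The direction was positive in each of these, but the RPKM themselves were lower in pleuropodia than in legs at day 8. With TMM scaling pleuropodia were 1.19-fold above legs at that day, so its direction depends on the scaling.

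**Figure D2:**
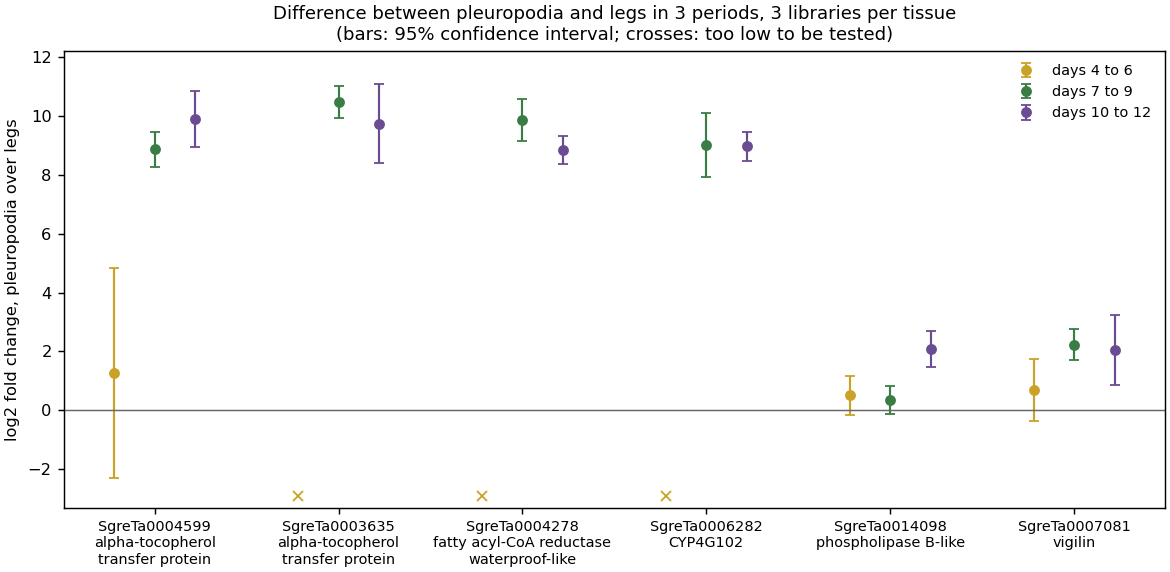
Log2 fold change of pleuropodia over legs from limma for each transcript at days 4 to 6, 7 to 9 and 10 to 12, with 95% confidence intervals and 3 libraries per tissue and period; crosses mark transcripts too low to be tested. From days 7 to 9 on, 4 transcripts lie between 8.84 and 10.48, SgreTa0007081 lies at 2.24 and 2.04, and SgreTa0014098 lies at 0.35 and then 2.07.

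For days 10 to 12, the libraries behind the study's list, the log2 fold changes are a description. They were 9.88 (standard error 0.39) for SgreTa0004599, 9.74 (0.55) for SgreTa0003635, 8.84 (0.20) for the reductase and 8.96 (0.20) for CYP4G102. The phospholipase B-like transcript stood at 2.07 (0.25) and vigilin at 2.04 (0.49). The same 4 transcripts thus lay apart from the other members in both periods, by more than 6 on the log2 scale. The study lists pro-phenol oxidase subunit 2 under immunity and melanization, among its transcripts higher in pleuropodia. It was the only marker of blood cells fixed for this account. This transcript stood at 462, 1041 and 2540 RPKM in pleuropodia of days 10, 11 and 12, against 187, 136 and 112 RPKM in legs. Whether blood cells or the gland made it was not tested, nor was its part in the levels of the members at those days. At day 7 this marker stood at 0.750 RPKM in pleuropodia and 0.332 RPKM in legs, and at days 4 to 6 at most at 0.0207 RPKM in either tissue. Whether it marks blood cells at these ages was not tested.

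From days 4 to 6 to days 7 to 9, 5 members rose in pleuropodia, in a fit of the 18 libraries of days 4 to 12. All 6 members reached the minimum level of this fit in legs too, at days 10 to 12. Up to day 8-9, however, SgreTa0003635, the reductase and CYP4G102 were at most at 0.603 RPKM in legs and passed 1 RPKM only in pleuropodia. Their values below are therefore a description, and their calls are not read as support. The log2 change in pleuropodia was 9.28 (standard error 0.95, adjusted p = 3.2e-06 from limma) for SgreTa0004599 and 10.30 (0.58, 7.5e-09) for SgreTa0003635. It was 9.03 (0.84, 1.1e-06) for the reductase, 9.13 (0.34, 1.5e-10) for CYP4G102 and 2.02 (0.42, 0.0019) for vigilin. Of all 12245 transcripts tested 22% were called higher in this comparison. The phospholipase B-like transcript changed by 0.37 (0.25, adjusted p = 0.26).

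In legs 0 of the 6 members were called higher over the same interval, near the 1.56% of all transcripts called higher. An unadjusted p under 0.05 from limma was found for 0 of them, beside 1751 of the 12245 transcripts tested. These counts do not show that the members stayed level in legs. Their log2 changes ran from 0.12 for CYP4G102 to 1.65 for SgreTa0004599 (adjusted p = 0.93 and 0.45 from limma). The change itself was larger in pleuropodia than in legs for SgreTa0004599, by 7.63 on the log2 scale (standard error 1.34, adjusted p = 0.0013 from limma), for SgreTa0003635 by 9.98 (0.82, 1.3e-06), for the reductase by 8.56 (1.18, 0.00016) and for CYP4G102 by 9.01 (0.48, 4.1e-08). These 4 members were called where 10.7% of all transcripts were called in this direction. For SgreTa0003635, the reductase and CYP4G102 this is a description, for the reason given above. For vigilin the difference of the changes was 1.57 (0.60, adjusted p = 0.097), and 2.08 (adjusted p = 0.011) without pleuropodia of day 6, the library in which it already stood at 436 RPKM. For the phospholipase B-like transcript it was -0.13 (0.36, adjusted p = 0.85), so a difference between the tissues was not shown.

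In RPKM, the rise of the 4 transcripts that were near 0 at first fell between the libraries of day 6 and day 7. The later library was 97.3 times the earlier one for SgreTa0004599 in pleuropodia, 398 times for SgreTa0003635, 42.0 times for the reductase and 1238 times for CYP4G102, the last from 9 reads. For the reductase the step before it, from 1 read at day 5 to 1399 reads at day 6, was larger as a ratio. Over the 11586 transcripts with more than 3 reads in pleuropodia at day 6, the median ratio was 0.947, and 3.50% exceeded 10. Vigilin stood at 1.59 times and the phospholipase B-like transcript at 1.29 times its level of day 6. The step of the phospholipase B-like transcript lay instead between day 8-9 and day 10, at 3.25 times, where SgreTa0004599 stood at 2.46 times, CYP4G102 at 3.44 times and vigilin at 1.13 times. SgreTa0003635 and the reductase were lower at day 10 than at day 8-9, at 0.745 and 0.762 times. Day 8-9 differs from its neighbours in sequencing centre, instrument, RNA clean-up and read handling, and the part of these in the step was not tested.

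**Figure D3:**
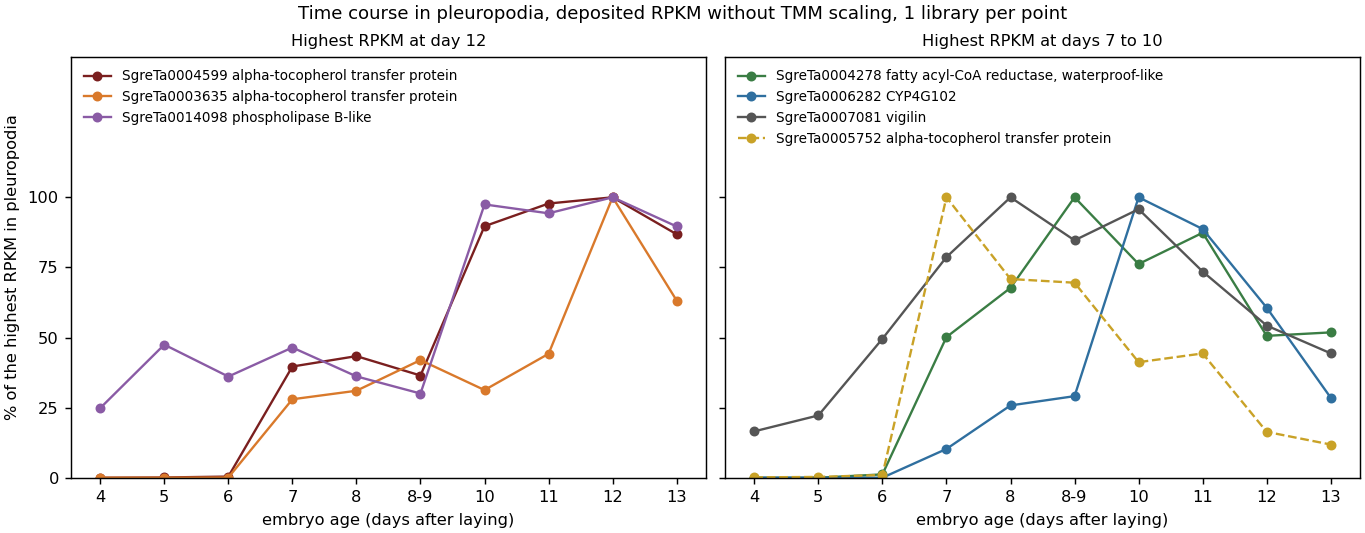
Level in pleuropodia as a percentage of the transcript's own highest library, 1 library per point, for the 3 members with the highest RPKM at day 12 (left) and for the 3 members and the further transcript SgreTa0005752 (dashed) with the highest RPKM at days 7 to 10 (right). The values are without TMM scaling, which moves the highest stage of SgreTa0014098 to day 13 and those of SgreTa0004278 and SgreTa0006282 to day 11. By RPKM, SgreTa0014098 and SgreTa0004599 both reach about their highest level at day 10 and hold 89.6% and 86.8% of it at day 13, whereas SgreTa0006282 holds 28.5%. With TMM scaling both still rise after day 10. Day 11 is 1.10 and 1.24 times day 10, and day 12 is 1.16 and 1.12 times day 11, for SgreTa0014098 and SgreTa0004599.

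The members reached their highest level in pleuropodia at different ages. By RPKM, vigilin was highest at day 8, the reductase at day 8-9, CYP4G102 at day 10, and both transfer proteins and the phospholipase B-like transcript at day 12. These ages depend on the scaling: with TMM, an alternative chosen after seeing the data, vigilin was highest at day 10, the reductase and CYP4G102 at day 11 and the phospholipase B-like transcript at day 13, while both transfer proteins stayed at day 12. By RPKM at day 13, shortly before hatching and with 1 library per tissue, pleuropodia held 89.6% of the highest level of the phospholipase B-like transcript, 86.8% for SgreTa0004599 and 63.2% for SgreTa0003635. They held 51.8% for the reductase, 44.4% for vigilin and 28.5% for CYP4G102. With TMM scaling the shares were 100%, 97.7%, 71.1%, 72.9%, 64.8% and 39.5% in the same order of members. In legs, 4 of the members, both transfer proteins, the reductase and CYP4G102, had their highest level at day 13. The largest of these leg values was 16.1 RPKM for SgreTa0004599. Pleuropodia were 519-fold above legs at day 10 and 36.6-fold at day 13 for CYP4G102, 475-fold and 118-fold for the reductase, and 919-fold and 329-fold for SgreTa0004599. For SgreTa0003635 the ratios were 641-fold and 700-fold, and with TMM scaling 965-fold and 786-fold.

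From days 7 to 9 to days 10 to 12, a change described without a test, the log2 change in pleuropodia was 2.55 (standard error 0.34) for CYP4G102, 1.91 (0.25) for the phospholipase B-like transcript, 1.78 (0.95) for SgreTa0004599 and 1.16 (0.58) for SgreTa0003635. It was 0.51 (0.84) for the reductase and 0.25 (0.42) for vigilin, and without TMM scaling these became 0.00 and -0.27. In legs CYP4G102 changed by 2.47 (0.34), SgreTa0003635 by 1.77 (0.58), the reductase by 1.38 (0.84) and SgreTa0004599 by 0.71 (0.95), all at low levels. Vigilin and the phospholipase B-like transcript stood at 0.41 (0.42) and 0.16 (0.25) in legs.

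Counted stage by stage as more than 2-fold and more than 10 RPKM, the study's thresholds without its further condition on a probability, which with 1 library per tissue is a count of ratios and no test, pleuropodia exceeded legs for 0 of 6 members at day 4, where 0.316% of all transcripts did so, and for 1 at day 5 (the phospholipase B-like transcript, 2.21-fold, beside 2.28%). At day 6 the count was 3 (SgreTa0004599, the reductase and vigilin, beside 5.78%). It was 5 at days 7, 8 and 8-9, where the phospholipase B-like transcript was missing, beside 8.41%, 7.56% and 8.28% of all transcripts. All 6 passed at days 10 and 11, beside 8.53% and 7.96%. At days 12 and 13 vigilin dropped out and 5 remained past the thresholds, beside 7.67% and 10.3%. These thresholds at days 10 to 12 are part of those behind the study's list, so the counts of those days follow from the choice of members. Legs exceeded pleuropodia in this sense for 0 members at any stage. The share of all transcripts that did so was not counted, so nothing is read from this.

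The sum of the 6 transcripts was 0.116%, 0.302%, 1.22% and 2.36% of the reads in pleuropodia of days 4, 6, 7 and 12, against 0.109%, 0.132%, 0.150% and 0.262% in legs. In pleuropodia SgreTa0004599 alone held 1.06% of the reads at day 12. By RPKM it took places 10713, 3097 and 7 of 12988 on days 4, 6 and 7, and stood between 7 and 14 in every pleuropodia library from day 7 on. The other members were between 21 and 535 in those libraries. In legs, nearly all the reads of the set came from vigilin and the phospholipase B-like transcript.

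A further 3 transcripts of the study's list have a related role, carrying lipids or other hydrophobic molecules. SgreTa0005752 is another alpha-tocopherol transfer protein, SgreTa0007025 a pheromone-binding protein of the A10/OS-D type and SgreTa0009515 a sensory neuron membrane protein 1-like, a family related to the CD36 lipid receptors. At days 7 to 9 their log2 fold changes of pleuropodia over legs were 7.40 (standard error 0.15, adjusted p = 2.3e-06 from limma), 9.82 (0.62) and 9.68 (0.54). SgreTa0007025 and SgreTa0009515 reached the minimum level only with their pleuropodia libraries and so had to differ, and their calls are not counted. SgreTa0005752 reached it in legs too and was called higher, as were 25.3% of all transcripts tested. At days 4 to 6, where of the 3 only SgreTa0005752 was tested, it was not called (0.86, adjusted p = 0.71). SgreTa0005752 stood at 1751, 1241 and 1218 RPKM in pleuropodia of days 7, 8 and 8-9, against 9.18, 11.3 and 8.34 RPKM in legs. At days 10, 11 and 12 it was at 721, 776 and 286 RPKM in pleuropodia, against 16.7, 14.4 and 7.89 RPKM in legs, and at day 13 at 207 RPKM in pleuropodia and 2.97 RPKM in legs. It thus peaked at day 7 in pleuropodia, when the other 2 of its name were at 39.7% and 28.0% of their own highest level.

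The balance among these 3 transfer proteins therefore shifted with age in pleuropodia. At days 4, 7, 10 and 13 SgreTa0005752 made up 94.1%, 34.8%, 10.1% and 2.78% of their summed RPKM. SgreTa0004599 made up 5.89%, 48.1%, 76.5% and 71.1% at these ages, and SgreTa0003635 0%, 17.1%, 13.4% and 26.1%. The sum was 2.27, 5033, 7158 and 7450 RPKM in pleuropodia, against 2.13, 14.9, 24.2 and 21.9 RPKM in legs. In legs SgreTa0005752 made up 93.4%, 61.6%, 69.1% and 13.6% of the sum. How alike the 3 sequences are, and whether reads could map to more than 1 of them, was not analysed here.

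**Figure D4:**
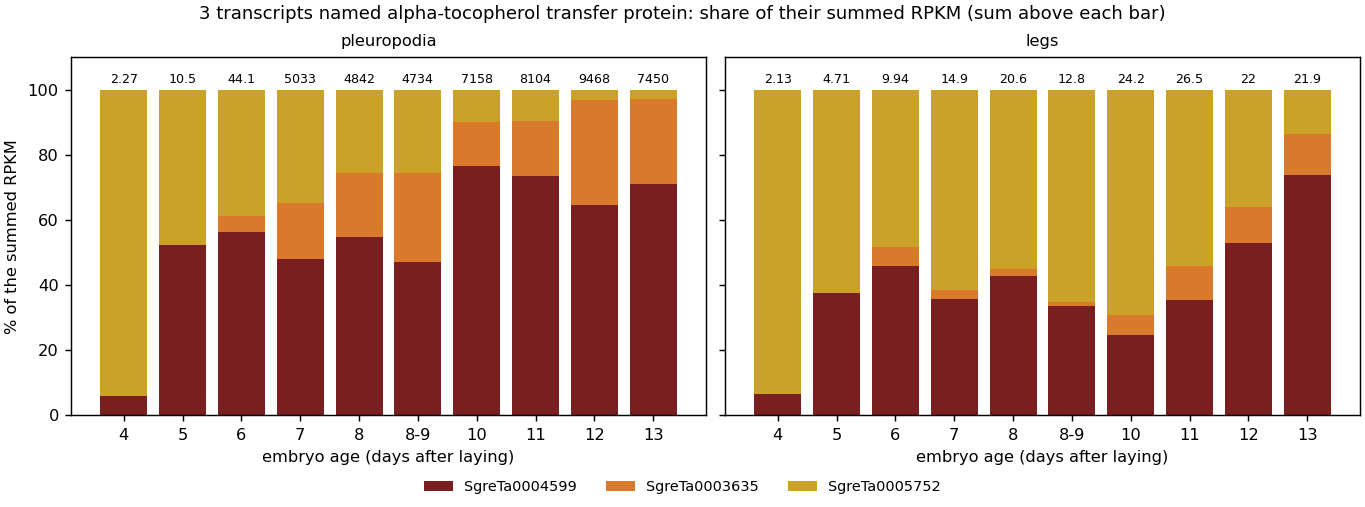
Share of each of the 3 alpha-tocopherol transfer protein transcripts in their summed RPKM, for pleuropodia (left) and legs (right), 1 library per bar, with the sum in RPKM above each bar. In pleuropodia the share of SgreTa0005752 is 94.1% at day 4 and 2.78% at day 13, while the sum is at least 4734 RPKM from day 7 on; in legs the sum never exceeds 26.5 RPKM.

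Profiles were compared by Pearson's r of log2(RPKM + 0.5) after TMM scaling. Over all 20 libraries the transfer proteins and the reductase had the most similar profiles within the set. Their r was 0.988 for SgreTa0003635 and the reductase, 0.986 for the transfer proteins and 0.985 for SgreTa0004599 and the reductase. CYP4G102 reached 0.968 to 0.980 with these 3, vigilin 0.921 to 0.950 with these and CYP4G102, and the phospholipase B-like transcript 0.762 to 0.848 with the other 5. These correlations share tissue and age and describe the profiles only. Within the 7 pleuropodia libraries of days 7 to 13, r between SgreTa0004599 and the phospholipase B-like transcript was 0.985, and that between SgreTa0003635 and vigilin -0.20.

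Among the 12434 transcripts that reached 1 RPKM in 3 or more libraries, those most like SgreTa0004599 were SgreTa0015173, SgreTa0007886 and SgreTa0000744 (r = 0.989, 0.988 and 0.988). Those most like SgreTa0003635 were SgreTa0006651, SgreTa0007426 and SgreTa0000397 (0.995 each). For the reductase they were SgreTa0007886, SgreTa0009515 and SgreTa0017761 (0.996, 0.995 and 0.992), and for CYP4G102 SgreTa0002877, SgreTa0008840 and SgreTa0004869 (0.993, 0.991 and 0.990). The study names SgreTa0007886 an alpha-N-acetylgalactosaminidase and SgreTa0007426 an Easter-like serine protease, and describes SgreTa0006651 as uncharacterized. For the phospholipase B-like transcript they were SgreTa0002048, SgreTa0015238 and SgreTa0009760 (0.959, 0.952 and 0.952), and for vigilin SgreTa0016179, SgreTa0001192 and SgreTa0001701 (0.993, 0.988 and 0.986). By this measure only SgreTa0007886 was among the nearest of more than 1 member. The names depend on the measure: 10 of the 18 places kept the same transcript without TMM scaling and 0 with Spearman's rho.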

How the data were processed

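The deposited table holds RPKM, made by the authors, per the study's methods, by mapping reads with Bowtie2 (version 2.2.5, local mode) to their own embryonic transcriptome, dropping transcripts of constantly low level with HTSFilter and dividing by transcript length and library size. Reads of day 8-9 came in pairs and were first trimmed to 50 bases with Trimmomatic. The methods state that trimmed mates were pooled as single reads, whereas the labels of those 2 libraries say that 1 direction was used. The authors' own comparison columns (log2 ratio, difference, probability and ranking) were not used.

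The members and lists were chosen with earlier results of these data known. Whole reads were recovered from the RPKM by searching, per transcript, for a length from 200 to 40000 bases that makes its values whole. A length was found for 12988 transcripts, and 100% of values were whole within 0.05 reads. Where several lengths fit, the reads could be too low by a whole factor. Libraries held 15186075 to 36884141 reads. Counting intervals of ratios are exact conditional 95% limits and cover counting error only. The count minimum for a ratio was more than 3 reads in at least 1 tissue.

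RPKM were scaled by TMM (unweighted, trimming fractions 0.3 and 0.05), and log2(RPKM + 0.5) was fitted with limma-trend for transcripts that reached 1 RPKM in 3 or more libraries of the fit (2 where a group was left with 2). This scale understates changes of low transcripts. Benjamini-Hochberg adjusted p under 0.05 was called. Tissue comparisons used the 6 libraries of a period, and changes with age the 18 libraries of days 4 to 12. The transcripts named were the 6 members, 3 related transcripts of the study's list, and for each member the 3 with the highest Pearson's r. Libraries of the 2 tissues share the age of the embryos. The correlation of their deviations from the group means was 0.43, 0.45 and 0.69 at days 7, 8 and 8-9 and 0.48, -0.06 and 0.34 at days 4, 5 and 6. Alternatives were no TMM, pseudocounts of 0.1 and 1, no filter, the day as a block, leaving out each library or both of day 8-9, other sets of libraries in the fit, and limma-voom on the recovered reads and TMM-scaled highest stages, these last chosen after seeing the data. The fits were tested on simulated data. The software was limma 3.58.1 and statmod 1.5.0 in R 4.3.3, and scipy 1.17.1, numpy 2.4.6, matplotlib 3.10.9 and pandas 2.3.3 in Python 3.11.15.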

Additional observations from a re-analysis of the deposited data

Results flagged for a closer look

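The difference between pleuropodia and legs was larger at days 7 to 9 than at days 4 to 6 for 4 members, as tested by the difference of the changes in limma: by 7.63 on the log2 scale for SgreTa0004599 (adjusted p = 0.0013), by 9.98 for SgreTa0003635 (1.3e-06), by 8.56 for the fatty acyl-CoA reductase SgreTa0004278 (0.00016) and by 9.01 for CYP4G102, SgreTa0006282 (4.1e-08). At days 7 to 9 pleuropodia were above legs in 3 of 3 stages for each of these. SgreTa0003635, the reductase and CYP4G102 were at most at 0.603 RPKM in legs there. Up to day 8-9 they passed 1 RPKM only in pleuropodia, so their values are a description. The share of all transcripts with pleuropodia above legs in each of these stages was not counted. No explanation of the larger difference at days 7 to 9 was tested.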

How the results depend on the processing

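The number of members called stayed within 1.5 times its value under every alternative run for the tests at days 4 to 6 and 7 to 9 and for the changes between them. It was 6 in place of 5 at days 7 to 9 with the day as a replicate block. These numbers include SgreTa0003635, SgreTa0004278 and SgreTa0006282, which had to differ there. With the block, the phospholipase B-like SgreTa0014098 had a log2 fold change of 0.35 and an adjusted p of 0.011 from limma. The block changed no other call of a member. Of 645 values for single members, 620 kept their direction and their side of the threshold or moved by less than the spread, 2 became significant, 14 described values moved by more than the spread and 9 reversed. Without TMM scaling, the median of the 6 members at days 10 to 12 was 8.37 in place of 8.90, and the changes from days 7-9 to days 10-12 reversed to -0.0039 for the reductase and -0.27 for vigilin in pleuropodia and to -0.041 for SgreTa0014098 in legs. Leaving out 1 library at a time, SgreTa0004599 at days 4 to 6 ranged from -0.040 (without pleuropodia of day 6) to 2.70 (without day 4), and the difference of changes of SgreTa0014098 from -0.36 (without pleuropodia of day 4) to 0.026 (without day 5). That of vigilin was 2.08 without pleuropodia of day 6. In legs the change of SgreTa0014098 from days 7-9 to days 10-12 ranged from -0.051 (without day 12) to 0.27 (without day 11) and was -0.11 without both libraries of day 8-9, and that of vigilin ranged from -0.14 (without day 12) to 0.70 (without day 10). The cause was not tested. Of the 18 most similar transcripts 10 were the same without TMM scaling and 0 with Spearman's rho, so these names depend on the measure. In legs the low reads of SgreTa0003635, SgreTa0004278 and SgreTa0006282, down to 1 read, limit the precision of their ratios.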
